A study of Mus musculus with 167 samples.

Results

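The miR-183 cluster is a trio of mature miRNAs, mmu-miR-183-5p, mmu-miR-96-5p and mmu-miR-182-5p, cut from neighbouring hairpins of one primary transcript. The 3 miRNAs were chosen out of the 1915 mature miRNAs counted in each of 5 tissues, and they were selected on their measured counts scaled to the library total (reads per 10 to the power 6 counted reads, RPM) by tissue, strain and irradiation. Their levels across those factors are therefore a description and carry no test. Differences between the sexes, between the letters A and B in the sample titles, and between animals of the same group were not used in that choice and are tested. The members and the marker lists were, however, chosen with earlier results of these data known, which limits these tests.

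The study compared mice given whole thorax lung irradiation (WTLI) with sham irradiated mice. The C3H strain was C3Hf/Sed/Kam, collected at month 4, and the C57 strain was C57Bl/6, collected at month 6, so that strain and time after exposure cannot be told apart. Small RNA was sequenced from 167 libraries of 35 animals, taken from lung, heart, brain, white blood cells (WBC) and red blood cells (RBC). The C3H animals were all female, 7 irradiated and 8 sham, and the C57 animals were 4 males and 1 female after irradiation and 8 males and 7 females after sham. WBC libraries were fewer, with 6 irradiated and 5 sham C3H and 5 irradiated and 11 sham C57 samples, and every other tissue had 1 library per animal.

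The cluster is best known from sensory epithelia, where its members are abundant in retinal photoreceptors, inner ear hair cells and olfactory neurons, and its loss impairs vision and hearing. A mature miRNA pairs with messenger RNAs mainly through bases 2 to 8 of its own sequence, the seed. The cluster members have closely related but not identical seeds, so their target sets overlap only in part. The miR-200 family, used here as a marker list, is a separate group of miRNAs known for maintaining the epithelial state.

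The sequences are shown because the seeds of the members are nearly alike. All 3 were matched by name in RefSeq (GRCm38.p6, minus strand), and the capitals mark the seed.
mmu-miR-183-5p: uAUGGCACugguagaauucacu
mmu-miR-96-5p: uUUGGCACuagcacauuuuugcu
mmu-miR-182-5p: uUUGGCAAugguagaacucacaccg
The seeds of mmu-miR-183-5p and mmu-miR-96-5p shared 6 of 7 bases, those of mmu-miR-96-5p and mmu-miR-182-5p also 6, and those of mmu-miR-183-5p and mmu-miR-182-5p 5. Over their whole length, compared base by base from the 5′ end without gaps, mmu-miR-183-5p and mmu-miR-182-5p were identical at 18 of 22 bases. By the same comparison mmu-miR-183-5p and mmu-miR-96-5p were identical at 13 of 22 bases, and mmu-miR-96-5p and mmu-miR-182-5p at 12 of 23. The only other RefSeq mouse miRNA with one of these seeds was mmu-miR-1271-5p, which carries that of mmu-miR-96-5p and was not analysed here.

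The hairpins lie on chromosome 6 in the order Mir183 (chr6:30169668-30169737), Mir96 (chr6:30169446-30169551) and Mir182 (chr6:30165918-30165992) along the direction of transcription. There were 116 bases between Mir183 and Mir96 and 3453 bases between Mir96 and Mir182. RefSeq places all 3 inside the long non-coding RNA gene Mirc35hg (chr6:30158640-30174125), between the protein-coding genes Nrf1 and Ube2h. The hairpin sequences follow, with both mature arms in capitals, the 5p arm first.
Mir183: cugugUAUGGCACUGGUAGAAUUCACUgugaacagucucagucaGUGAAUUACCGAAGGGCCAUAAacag
Mir96: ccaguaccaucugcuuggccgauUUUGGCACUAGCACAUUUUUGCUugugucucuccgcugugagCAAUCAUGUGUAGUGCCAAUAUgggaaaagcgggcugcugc
Mir182: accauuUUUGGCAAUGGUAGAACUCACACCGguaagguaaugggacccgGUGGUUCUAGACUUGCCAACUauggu
Reads came almost wholly from the 5p arms. Over all 167 libraries mmu-miR-183-5p collected 572159 reads, mmu-miR-96-5p 97448 and mmu-miR-182-5p 95654, while their 3p arms collected 5, 20 and 32. No library held more than 3 reads of any 3p arm, and 3 reads, the limit that a count of 0 allows, correspond to between 0.381 and 1.67 RPM depending on the depth.

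Library totals ran from 1794995 to 7865102 counted reads. The tissue markers followed the labels in part. The 4 neuronal miRNAs summed to between 111122 and 159406 RPM in brain, and the 4 cardiac muscle miRNAs to between 50690 and 298863 RPM in heart. One heart library, replicate 3 of irradiated C3H, was at that low end, with the next heart library at 152407 RPM. The blood fractions were not separated by the erythrocyte list, which summed to between 17913 and 106907 RPM in WBC and to between 28566 and 106323 RPM in RBC. The leukocyte list summed to between 8203 and 45244 RPM in RBC.

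Brain and lung held the cluster at high levels and the other tissues at low ones. The median level of mmu-miR-183-5p was 1127 RPM in brain, 761 RPM in lung, 14.9 RPM in heart, 6.47 RPM in WBC and 4.31 RPM in RBC. For mmu-miR-96-5p the medians in the same order were 244, 344, 7.40, 2.42 and 4.96 RPM, and for mmu-miR-182-5p they were 182.1, 286, 8.35, 5.40 and 4.37 RPM. Each lung library lay above each heart, WBC and RBC library for mmu-miR-183-5p, with a lowest lung value of 468 RPM and a highest heart value of 143 RPM. Brain and lung were not separated, because brain values ran from 159 to 28386 RPM and enclosed the whole lung range. Heart, WBC and RBC also overlapped, from 2.06 to 143, from 2.54 to 45.5 and from 1.34 to 22.8 RPM.

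**Figure D1:**
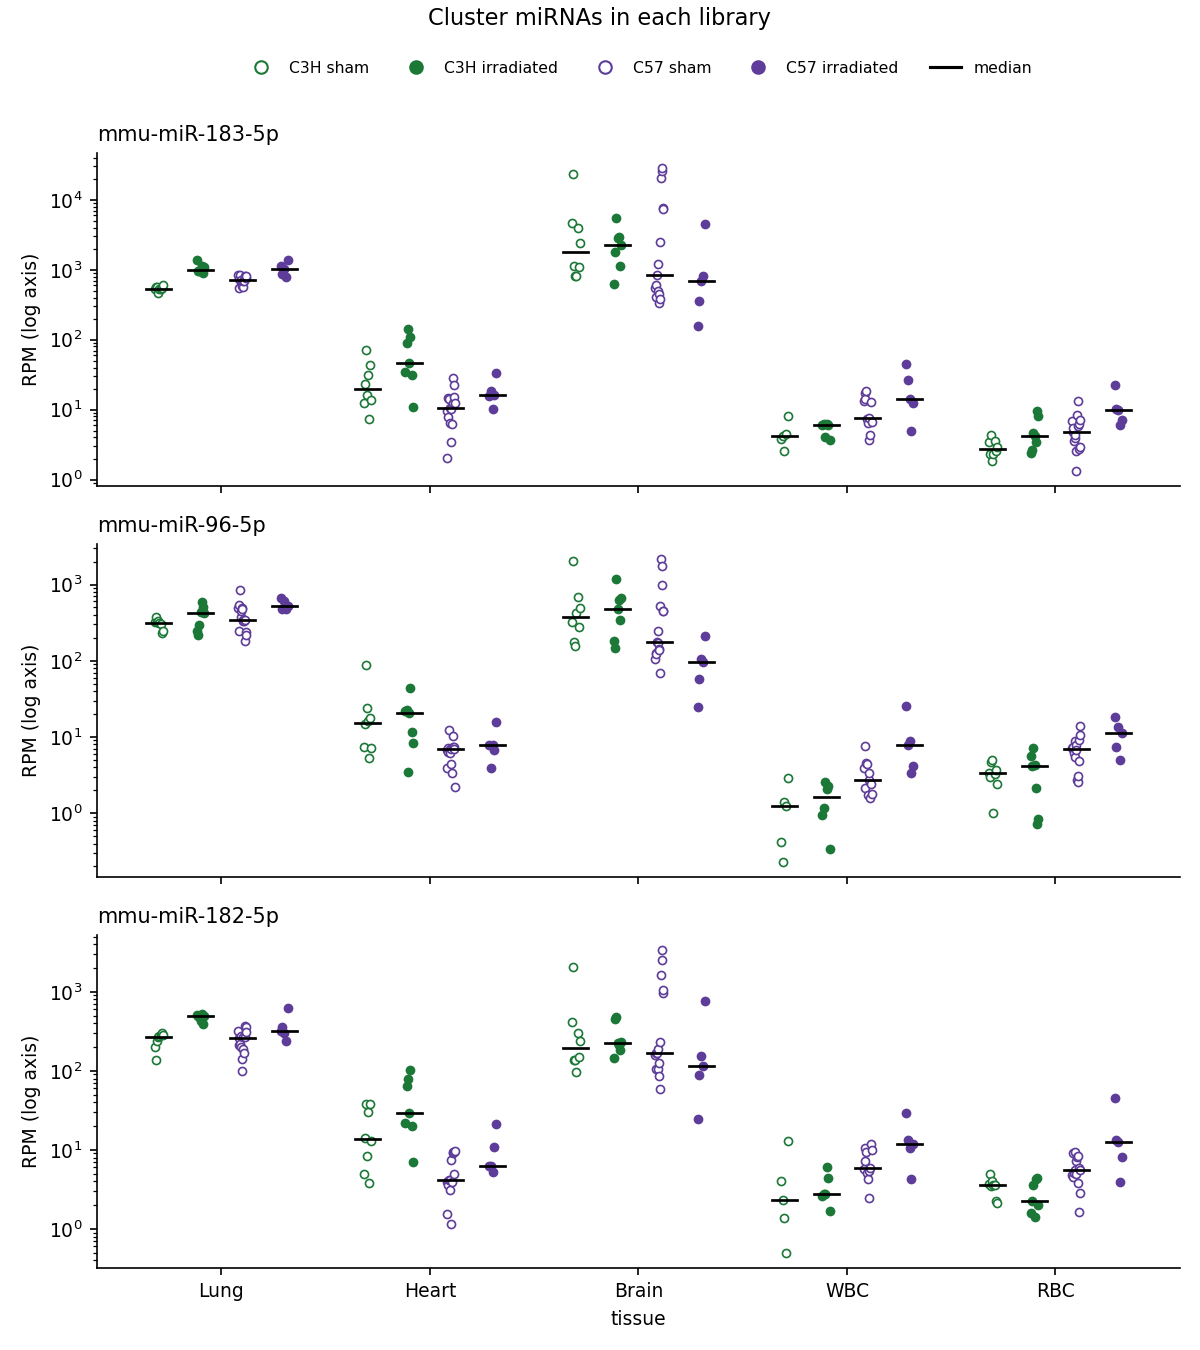
RPM of mmu-miR-183-5p, mmu-miR-96-5p and mmu-miR-182-5p (vertical, log axis) in each library of 5 tissues, by strain (colour) and irradiation (filled, irradiated, and open, sham), with the median of each group as a bar. Group medians of brain and lung lie above those of heart, WBC and RBC, while single brain libraries overlap with heart for mmu-miR-96-5p and mmu-miR-182-5p, and brain libraries spread from 159 to 28386 RPM for mmu-miR-183-5p.

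The share that each member took of the cluster's reads differed between tissues. mmu-miR-183-5p made up a median of 74.8% of the 3 members' reads in brain, 52.7% in lung, 46.1% in heart, 47.4% in WBC and 30.0% in RBC. mmu-miR-96-5p made up 13.8% in brain and 27.9% in lung. In brain the share of mmu-miR-183-5p never fell below 59.5%, and in lung it never exceeded 64.6%. In WBC a member was counted as few as 1 time in a library and in RBC as few as 2, so shares there carry a large counting error. Ligation and amplification differ between sequences, so levels of different miRNAs are compared here only as read counts.

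In brain the females among C57 sham mice had far more of all 3 members than the males. mmu-miR-183-5p ran from 379 through a median of 7546 to 28386 RPM in 7 females and from 337 through 522 to 1209 RPM in 8 males. mmu-miR-182-5p ran from 59.0 through 1042 to 3369 RPM in females and from 85.3 through 141 to 188 RPM in males. mmu-miR-96-5p ran from 69.7 through 520 to 2153 RPM in females and from 107 through 141 to 244 RPM in males. For each of the 3, 6 of the 7 females lay above every male, and the remaining female lay among the males for mmu-miR-183-5p and below every male for the other members.

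In the limma fit over all brain libraries grouped by strain, irradiation and sex, all 3 members were lower in males. The log2 difference, male minus female, was -3.56 (SE 0.69, adjusted p = 0.000516) for mmu-miR-183-5p by limma. It was -2.56 (SE 0.64, adjusted p = 0.00584) for mmu-miR-182-5p and -2.02 (SE 0.55, adjusted p = 0.0101) for mmu-miR-96-5p by the same test. A miRNA was called where the adjusted p was under 0.05 and the log2 difference at least 1.17 in size, and 4.87% of the miRNAs tested in brain were called between the sexes, against all 3 members. The difference had the same sign within each letter of the titles, at -3.04 in A and -4.41 in B for mmu-miR-183-5p on the log2(RPM + 1) scale, at -1.74 and -3.62 for mmu-miR-182-5p and at -2.22 and -1.77 for mmu-miR-96-5p. All 3 members stayed called when any single sham C57 library was left out.

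**Figure D2:**
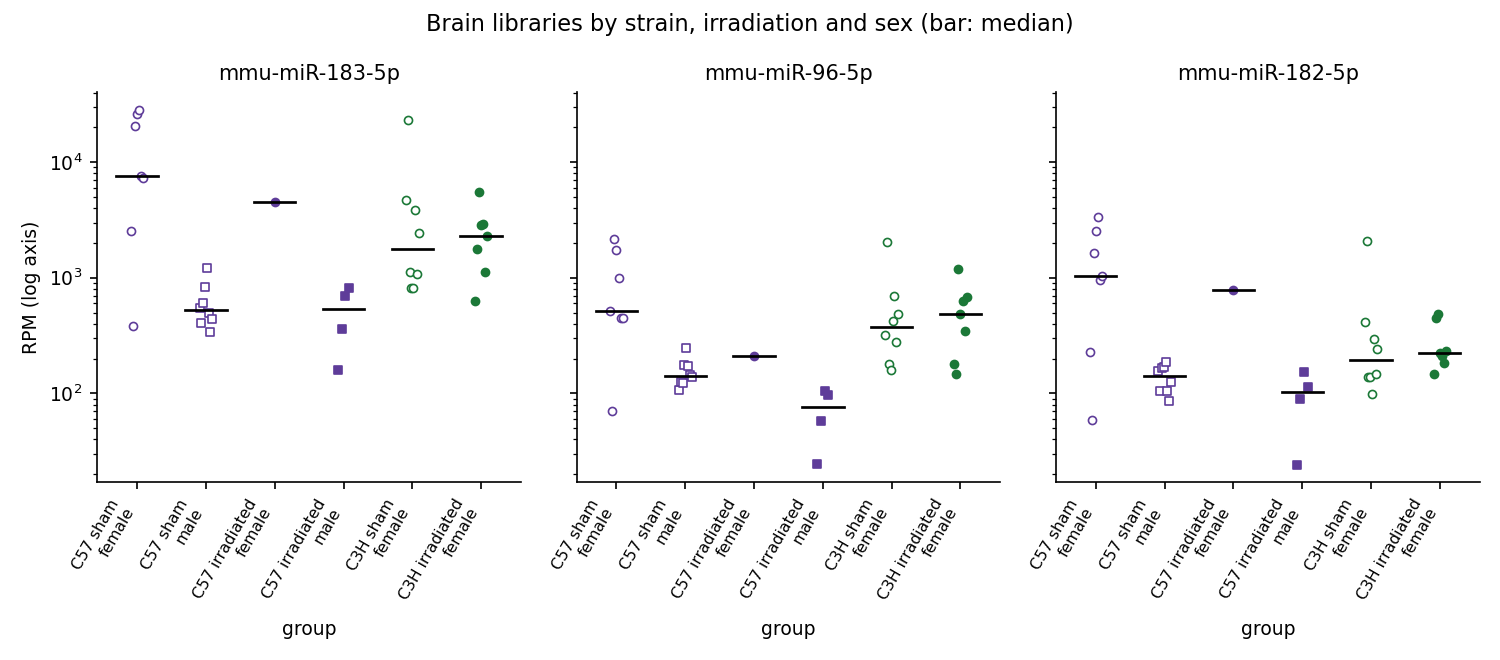
RPM of each member (vertical, log axis) in brain libraries by strain, irradiation and sex (circles, females, and squares, males), with group medians as bars. For mmu-miR-183-5p the 7 C57 sham females have a median of 7546 RPM, against 522 RPM in the 8 C57 sham males.

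The miRNAs of the miR-200 family, here a list of 5 used as epithelial markers, moved with the cluster in brain. All 5 were called lower in sham C57 males, with a median log2 difference of -4.19. mmu-miR-200a-3p, the most abundant of them, had a median of 8673 RPM in females and 215 RPM in males, a log2 difference of -4.59 (SE 1.16, adjusted p = 0.00584 by limma). Summed over the list, females ran from 352 through 10473 to 41037 RPM and males from 172 through 300 to 2165 RPM. None of the 5 miRNAs of ciliated epithelium and none of the 4 neuronal miRNAs were called, with medians of 0.49 and 0.33. Of the 4 erythrocyte miRNAs 1 was called lower in males, mmu-miR-486a-5p at -1.33, with a median of -0.30, and the list summed to between 31.5 and 191 RPM in males and between 67.5 and 156 RPM in females. mmu-miR-124-3p, an abundant neuronal miRNA, had a median of 1724 RPM in females and 4626 RPM in males (log2 difference 1.07, adjusted p = 0.00311 by limma), which was under the fold minimum. The summed neuronal list ran from 119126 to 146310 RPM in females and from 134728 to 159406 RPM in males. In bulk tissue fewer cells of a type and less RNA per cell cannot be told apart, and the part of the miR-200 expressing cells or of erythrocytes in the difference of the cluster was not tested.

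The miRNAs whose brain levels most resembled those of the cluster were all of this family. After the group means of strain and irradiation were removed, the 5 highest Pearson correlations with the mean of the members, among 429 miRNAs and over 35 libraries, were those of mmu-miR-200a-5p (0.93), mmu-miR-200b-3p (0.90), mmu-miR-200a-3p (0.89), mmu-miR-429-3p (0.88) and mmu-miR-200c-3p (0.88). With sex means removed as well they were 0.87, 0.84, 0.82, 0.83 and 0.77. The mean of the 5 listed miR-200 miRNAs correlated with the mean of the members at r = 0.86 over the 23 female libraries and at r = 0.48 over the 12 C57 male libraries. These are descriptions, and the libraries share their normalisation.

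**Figure D3:**
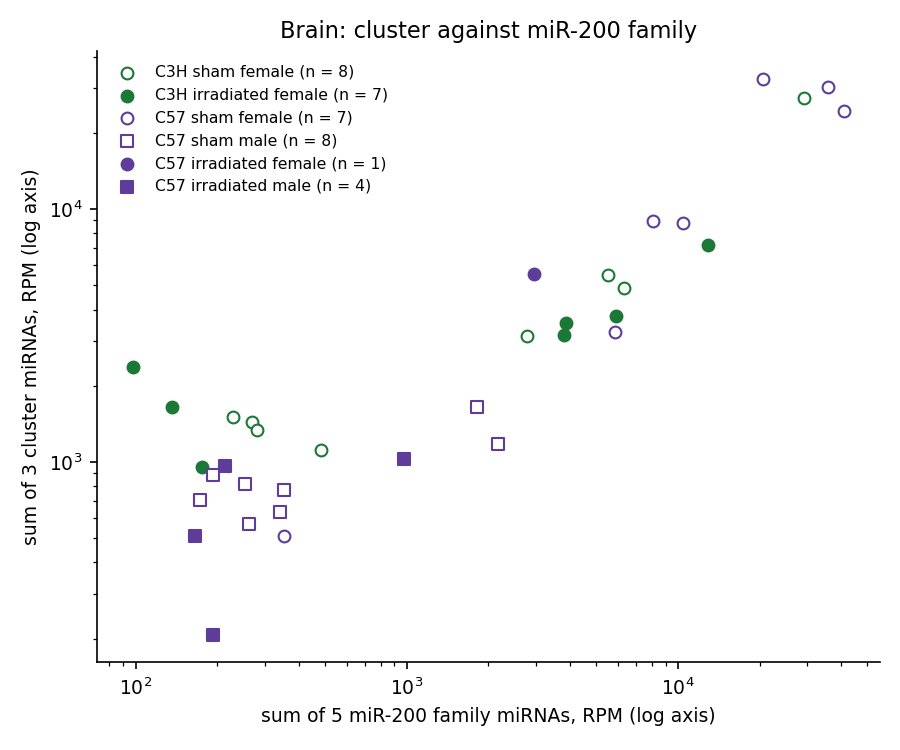
Sum of the 3 cluster miRNAs (vertical, RPM, log axis) against the sum of 5 miR-200 family miRNAs (horizontal, RPM, log axis) in 35 brain libraries, by strain (colour), irradiation (filled or open) and sex (circle or square). Libraries with the highest sums of one have the highest sums of the other, with C57 sham females reaching 32750 RPM of the cluster and 41037 RPM of the miR-200 list. Between the means of the 2 sets of miRNAs r was 0.86 over females and 0.48 over C57 males.

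Sex was read in the same way in the other tissues. In heart mmu-miR-182-5p was called lower in sham C57 males, with medians of 3.71 RPM in 8 males and 9.05 RPM in 7 females and a log2 difference of -1.61 (SE 0.63, adjusted p = 0.0464 by limma). In that tissue 10.1% of 367 miRNAs were called between the sexes, and the call of mmu-miR-182-5p was lost when any one of 12 of the 15 libraries was left out. Among the marker lists mmu-miR-34c-3p (ciliated, log2 difference -1.38) and mmu-miR-7b-5p (neuroendocrine, -1.25) were called lower in male heart, and mmu-miR-451a (1.20) and mmu-miR-144-3p (1.80) of erythrocytes and mmu-miR-208a-3p (2.51) of cardiac muscle higher. Their part in the result was not tested. For mmu-miR-183-5p in heart the log2 difference was -1.18 (SE 0.52, adjusted p = 0.0750 by limma), and for mmu-miR-96-5p it was -0.06 (SE 0.47, adjusted p = 0.938 by limma), or 0.32 with library size alone. In lung mmu-miR-96-5p was higher in males, with medians of 479 RPM in males and 330 RPM in females, and a log2 difference of 0.76 (SE 0.22, adjusted p = 0.0344 by limma) that was under the fold minimum. There 7 of 8 males lay above every female, and the differences of mmu-miR-183-5p and mmu-miR-182-5p were -0.07 (SE 0.14) and -0.32 (SE 0.18). Of the erythrocyte list 2 of 4, mmu-miR-486a-5p and mmu-miR-144-5p, were called lower in male lung, with a median log2 difference of -1.64, and the list summed to between 106 and 756 RPM in males and between 344 and 2121 RPM in females. Its part in the result was not tested. Of 397 miRNAs 2.27%, which is 9, were called in lung, a count that ran from 1 to 17 when 1 library was left out. In WBC, where 7.62% of 341 miRNAs were called, and in RBC, where 6.12% of 278 were, none of the members were called by limma, edgeR or DESeq2, and none had an unadjusted p under 0.05 by limma.

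The letter in the titles, whose meaning is not stated, was read as 1 difference averaged over the groups of strain and irradiation. By limma none of the members were called between A and B in any tissue, with 0% of all miRNAs called in lung, heart, brain, WBC and RBC, and no member had an unadjusted p under 0.05. Over all miRNAs 20, 27, 26, 24 and 8 had one, in the same order of tissues. That average can hide differences of opposite direction. In C3H lung mmu-miR-96-5p ran from 320 to 375 RPM in A and from 228 to 315 RPM in B among sham animals, but from 219 to 296 RPM in A and from 424 to 584 RPM in B among irradiated animals.

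The comparison of irradiated with sham mice asked whether thoracic irradiation left a lasting change in a tissue. Irradiated animals were sampled at the study endpoint, which many irradiated mice in the paper did not live to reach. Survivors were thus compared with sham mice, and selection by survival cannot be told apart from a change. Since the members were selected on this comparison, their values are a description, and so is every statement that a member met the call rule or did not, from which nothing is read. In the irradiated lung mmu-miR-183-5p and mmu-miR-182-5p were higher in C3H mice, and the groups of mmu-miR-96-5p overlapped. mmu-miR-183-5p ran from 910 through 982 to 1371 RPM in 7 irradiated and from 468 through 537 to 610 RPM in 8 sham C3H lungs. mmu-miR-182-5p ran from 389 through 488 to 519 RPM in irradiated and from 135 through 271 to 302 RPM in sham lungs. For both every irradiated library lay above every sham library, which was also so for 12% of all 350 miRNAs tested. mmu-miR-96-5p ran from 219 through 424 to 584 RPM in irradiated and from 228 through 318 to 375 RPM in sham C3H lungs, and these ranges overlapped.

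The fitted log2 differences in C3H lung were 0.73 (SE 0.14) for mmu-miR-183-5p, 0.64 (SE 0.19) for mmu-miR-182-5p and 0.05 (SE 0.25) for mmu-miR-96-5p, the last of which became -0.02 with trimmed-mean (TMM) scaling. All 3 were under the fold minimum, so none were called, against 9.71% of all miRNAs. Quantile normalisation and scaling to the library total differed here, because the median miRNA was 0.25 higher in irradiated C3H lung on the log2(RPM + 1) scale and -0.08 in the quantile fit. Within the letters A and B the log2(RPM + 1) differences were 1.02 and 0.89 for mmu-miR-183-5p and 1.26 and 0.66 for mmu-miR-182-5p. For mmu-miR-96-5p they were -0.43 and 0.83, of opposite sign.

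In C57 lung, mmu-miR-183-5p stood at 796, 862, 1019, 1149 and 1359 RPM in the 5 irradiated animals and ran from 541 through 713 to 846 RPM in 15 sham animals. Of the irradiated libraries 4 lay above every sham library. mmu-miR-96-5p stood at 477, 482, 519, 614 and 674 RPM after irradiation, against 181 through 344 to 856 RPM in sham. mmu-miR-182-5p stood at 236, 299, 323, 361 and 626 RPM, against 101 through 259 to 366 RPM in sham, and its highest value was that of the only irradiated female. The log2 differences were 0.37 (SE 0.14), 0.40 (SE 0.24) and 0.42 (SE 0.19) for mmu-miR-183-5p, mmu-miR-96-5p and mmu-miR-182-5p, and none were called, against 6% of all miRNAs. Among males alone the fitted differences were 0.33, 0.08 and 0.37, and without the irradiated female, replicate 5, that of mmu-miR-182-5p was 0.22 with the sham females kept. The difference between the strains' changes, C3H minus C57, was 0.36 (SE 0.20), -0.34 (SE 0.34) and 0.22 (SE 0.27).

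**Figure D4:**
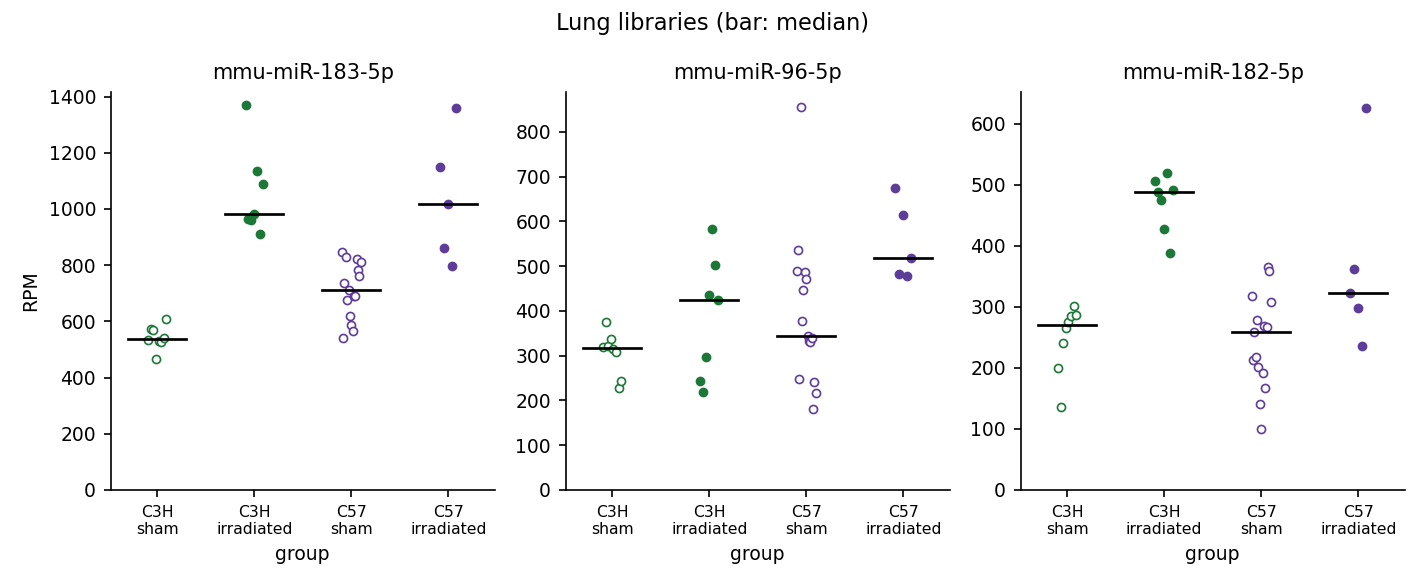
RPM of each member (vertical, from 0) in lung libraries of C3H and C57 mice, sham (open) and irradiated (filled), with group medians as bars. For mmu-miR-183-5p and mmu-miR-182-5p the 7 irradiated C3H libraries lie above all 8 sham C3H libraries, while those of mmu-miR-96-5p overlap.

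The marker lists in lung moved unevenly. None of the 5 miR-200 family miRNAs were called in either strain, with median log2 differences of -0.12 in C3H and -0.01 in C57 lung, and their sum ran from 8381 to 22738 RPM in irradiated and from 12588 to 22592 RPM in sham C3H lung. The neuronal list had 1 of 4 called, higher, in C57 lung, mmu-miR-9-5p at 1.33 (median of the list 0.93), and none in C3H lung (median -0.14). It summed to between 141 and 590 RPM in irradiated and between 64.1 and 205 RPM in sham C57 males. Of the 3 neuroendocrine miRNAs only mmu-miR-7b-5p was called, with log2 differences of 4.55 (SE 0.29) in C3H and 4.78 (SE 0.24) in C57 lung. mmu-miR-375-3p, a miRNA enriched in endocrine cells, was at -0.33 (SE 0.19) and -0.62 (SE 0.19). The list summed to between 501 and 853 RPM in irradiated and between 326 and 455 RPM in sham C3H lung. Its sum in C57 males was between 887 and 1711 RPM in irradiated and between 417 and 779 RPM in sham lung. The 2 endothelial miRNAs, which take a large share of all lung reads, summed to between 297017 and 390147 RPM in irradiated and between 380361 and 444378 RPM in sham C3H lung. The cardiac muscle list had 2 of 4 miRNAs called lower in C3H lung, mmu-miR-208a-3p and mmu-miR-499-5p (log2 differences of -1.42 and -1.46), with a median of -1.15, and summed to between 2569 and 5226 RPM in irradiated and between 4759 and 7515 RPM in sham lung. Of the 5 ciliated miRNAs only mmu-miR-449a-5p was called, at 1.51 in C3H lung. The part of any of these lists in the differences of the cluster was not tested. The miRNAs that most resembled the mean of the members in lung, after group means were removed, were mmu-miR-672-5p (Pearson r = 0.82 over 35 libraries), mmu-miR-146b-5p (0.68), mmu-miR-379-5p (0.68), mmu-miR-147-3p (0.59) and mmu-miR-135b-5p (0.58).

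In heart the levels were low and the C3H groups overlapped. mmu-miR-183-5p ran from 10.9 through 47.2 to 143 RPM in 7 irradiated and from 7.33 through 19.8 to 72.4 RPM in 8 sham C3H hearts. mmu-miR-182-5p ran from 7.11 through 29.1 to 103 RPM in irradiated and from 3.81 through 13.6 to 38.1 RPM in sham hearts. mmu-miR-96-5p ran from 3.49 through 20.5 to 43.6 RPM and from 5.28 through 15.4 to 86.8 RPM. For mmu-miR-183-5p and mmu-miR-182-5p, 3 of the 7 irradiated libraries lay above every sham library.

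The log2 differences in C3H heart were 1.29 (SE 0.48) for mmu-miR-183-5p and 1.44 (SE 0.50) for mmu-miR-182-5p. For mmu-miR-96-5p it was 0.12 (SE 0.38), but -0.07 with library size alone and -0.06 with edgeR and with DESeq2. mmu-miR-182-5p met the call rule, beside 6.73% of all 312 miRNAs. It did not with the animal as a block, library size alone, the letter as a covariate, the loose filter or C3H fitted alone. Without replicate 3 of the irradiated C3H hearts, the library low in cardiac miRNAs, its difference was 1.18 and it did not meet the rule. The same held on leaving out any 1 of 8 other libraries, namely replicates 2, 4 and 5 of irradiated and 1, 2, 4, 6 and 8 of sham C3H. Within the letters A and B the log2(RPM + 1) differences were 1.61 and 0.89 for mmu-miR-183-5p, 1.88 and 0.68 for mmu-miR-182-5p and -0.79 and 0.69 for mmu-miR-96-5p, the last of opposite sign. The ciliated epithelium list, of miR-34b/c and miR-449 miRNAs, also differed between these groups. All 4 tested were called higher in irradiated C3H heart, and the list summed to between 184 and 724 RPM in irradiated and between 61.9 and 200 RPM in sham hearts. Its median log2 difference in C3H lung was -0.03, with 1 of 5 called. Whether the list followed the members from library to library within a group was not tested. None of the 5 miR-200 miRNAs were called in C3H heart, and their median log2 difference was -0.67. The erythrocyte list had 1 of 4 called lower, mmu-miR-451a (median of the list -1.21), and summed to between 331 and 1722 RPM in irradiated and between 608 and 2740 RPM in sham hearts. The leukocyte list had 1 of 5 called lower, mmu-miR-150-5p (median -0.30), and summed to between 833 and 2656 RPM in irradiated and between 1065 and 10253 RPM in sham hearts. Sham replicate 3 stood apart in these markers, with 10253 RPM of the leukocyte list against 3355 in the next sham heart, 942 RPM of the miR-200 list against 426 and 2740 RPM of the erythrocyte list against 2095. Without it the log2 differences of mmu-miR-183-5p, mmu-miR-96-5p and mmu-miR-182-5p were 1.47, 0.43 and 1.56, and the first and last met the call rule. The part of any of these lists in the result was not tested. The miRNAs most like the mean of the members in heart, after group means were removed, were mmu-miR-129-5p (Pearson r = 0.63 over 35 libraries), mmu-miR-7a-5p (0.55), mmu-miR-382-5p (0.52), mmu-miR-200b-3p (0.50) and mmu-miR-7b-5p (0.49).

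In C57 heart the 5 irradiated libraries held 10.2, 15.8, 16.2, 18.6 and 33.6 RPM of mmu-miR-183-5p, and from 5.28 through 6.29 to 21.4 RPM of mmu-miR-182-5p. The 15 sham libraries ran from 2.06 through 10.5 to 28.0 RPM and from 1.15 through 4.14 to 9.61 RPM. The log2 differences were 0.56 (SE 0.52), 0.12 (SE 0.46) and 0.76 (SE 0.61) for mmu-miR-183-5p, mmu-miR-96-5p and mmu-miR-182-5p, that of mmu-miR-96-5p becoming -0.06 with males alone, and none were called, against 0.962% of all miRNAs. Without irradiated replicate 5, the only irradiated female, they were 0.36, -0.10 and 0.49. With males alone every one of the 4 irradiated hearts lay above all 8 sham hearts for mmu-miR-182-5p, as did 2.56% of all miRNAs, with a log2(RPM + 1) difference of 0.99. Of the ciliated list 1 of 4 tested, mmu-miR-34c-5p, was called higher in irradiated C57 heart, with a median log2 difference of 1.17 over the list, and the list summed to between 77.8 and 178 RPM in irradiated and between 28.8 and 123 RPM in sham males. Its part in the result was not tested.

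**Figure D5:**
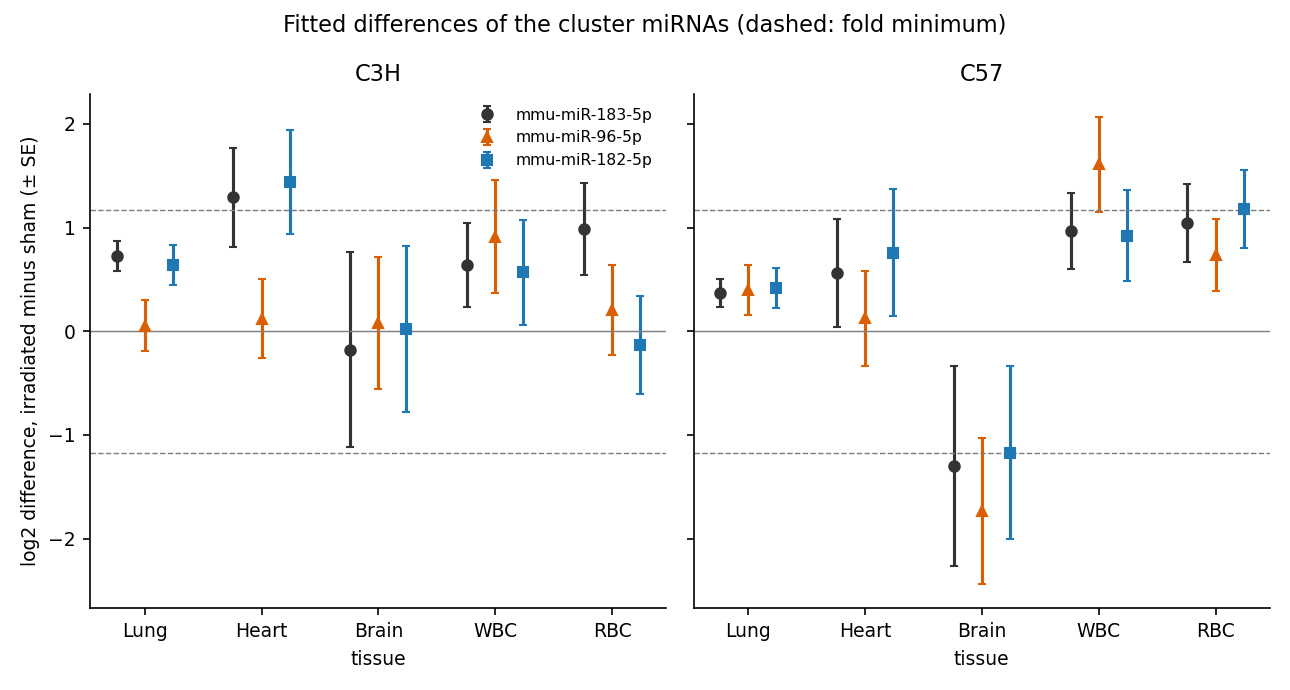
Fitted log2 difference, irradiated minus sham, of each member in 5 tissues for C3H (left) and C57 (right), with bars of 1 SE and dashed lines at the fold minimum (1.17 on the log2 scale). Lung values are small with short bars, from 0.05 to 0.73, and brain values of C57 are between -1.74 and -1.17 with long bars.

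In brain the C57 groups differed in their mix of sexes, and the values are therefore given for males alone as well. The log2 differences, irradiated minus sham, were -1.30 (SE 0.97) for mmu-miR-183-5p, -1.74 (SE 0.70) for mmu-miR-96-5p and -1.17 (SE 0.83) for mmu-miR-182-5p in C57. Without 1 library they ran from -2.04 to -0.78, from -2.11 to -1.35 and from -1.86 to -0.61. Of the 5 irradiated animals 4 were male, and the irradiated female had 4563 RPM of mmu-miR-183-5p where the males had 159, 362, 701 and 819 RPM. Among males alone the fitted differences were -0.38 for mmu-miR-183-5p, -1.18 for mmu-miR-96-5p and -0.66 for mmu-miR-182-5p. mmu-miR-96-5p, at 24.6, 57.2, 96.2 and 104 RPM, lay below all 8 sham males in each of the 4 irradiated males, as did 2.08% of all miRNAs. None of the members were called in C57 brain by limma, where 0% of 433 miRNAs were called, 53 had an unadjusted p under 0.05 and edgeR called 0. DESeq2 called 2, and mmu-miR-96-5p met the call rule with DESeq2 and with the animal as a block. The 5 miR-200 miRNAs had a median log2 difference of -1.86 there, with none called.

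In C3H brain, where all animals were female, the groups overlapped and spread widely. mmu-miR-183-5p ran from 624 through 2277 to 5517 RPM in 7 irradiated and from 808 through 1772 to 23366 RPM in 8 sham animals. The log2 differences of the members were -0.18 (SE 0.94), 0.08 (SE 0.64) and 0.02 (SE 0.80) for mmu-miR-183-5p, mmu-miR-96-5p and mmu-miR-182-5p, which became -1.06, -0.21 and -0.74 with edgeR, and 0.27, 0.40 and 0.47 without sham replicate 2. By limma 0% of 433 miRNAs were called, with 9 at an unadjusted p under 0.05, and edgeR and DESeq2 called 0. Sham C57 minus sham C3H females gave 1.46 (SE 0.67), 0.52 (SE 0.54) and 1.61 (SE 0.63) on the log2 scale for the members in the same order, strain and month together.

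In the blood fractions the members had between 1 and 191 reads in a library. In C57 WBC mmu-miR-96-5p stood at 3.37, 4.18, 7.90, 8.74 and 25.4 RPM in irradiated animals and ran from 1.59 through 2.74 to 7.64 RPM in 11 sham animals, a log2 difference of 1.61 (SE 0.46). Of the 5 irradiated libraries 3 were above every sham library for it. Within the letters A and B its log2(RPM + 1) difference was 1.83 and 0.68. In the same tissue the differences of mmu-miR-183-5p and mmu-miR-182-5p were 0.96 (SE 0.37) and 0.92 (SE 0.44), or 0.55 and 0.56 without irradiated replicate 1. In C57 RBC they were 1.04 (SE 0.38) for mmu-miR-183-5p, 0.73 (SE 0.35) for mmu-miR-96-5p and 1.18 (SE 0.38) for mmu-miR-182-5p, the last of which was -0.13 (SE 0.47) in C3H. In C57 RBC mmu-miR-182-5p stood at 3.92, 8.22, 12.6, 13.4 and 44.9 RPM after irradiation, against 1.65 through 5.55 to 9.41 RPM in sham, and without irradiated replicate 1 its difference was 0.65. In C3H WBC and RBC the differences of the members ran from -0.13 to 0.99, and in RBC those of mmu-miR-96-5p (0.20) and mmu-miR-182-5p (-0.13) changed sign, to -0.18 with library size alone and to 0.11 with edgeR. In C3H RBC that of mmu-miR-183-5p was 0.99, or 0.62 without irradiated replicate 7. In C3H WBC mmu-miR-96-5p was at 0.91, or 0.47 without sham replicate 2, and mmu-miR-182-5p at 0.57, or 0.21 without sham replicate 4 and 1.01 without sham replicate 5. The miRNA most like the mean of the members was mmu-miR-3074-1-3p in WBC (Pearson r = 0.72 over 27 libraries) and mmu-miR-1954 in RBC (r = 0.75 over 35).

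No member was called in either blood fraction by limma. In WBC 0% of 291 miRNAs were called in C3H and in C57. Their unadjusted p was under 0.05 for 20 miRNAs in C3H and for 12 in C57, and edgeR and DESeq2 called 0 in both. In RBC 0% of 229 were called in C3H and in C57, where 43 and 14 miRNAs had such a p. There edgeR called 6 and DESeq2 14 in C3H, with 1 member among those of DESeq2. In C57 RBC each of these tools called 1, which was a member.

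The last question was whether the members, which share a primary transcript, varied together between animals of one group. Deviations of the quantile-normalised log2 RPM from the means of strain and irradiation were correlated for each pair in each tissue, with a two-sided permutation test within groups and adjustment over 15 pairs. In brain all 3 pairs were correlated over 35 libraries, a pool of females and males that differed in level. mmu-miR-183-5p and mmu-miR-182-5p had Pearson r = 0.96 and Spearman rho = 0.95, each with p = 1e-05 by permutation, the smallest the permutations can give, and adjusted p = 3.75e-05. mmu-miR-183-5p and mmu-miR-96-5p had r = 0.91 and rho = 0.88, and mmu-miR-96-5p and mmu-miR-182-5p r = 0.84 and rho = 0.81, with the same permutation p. Without the 2 libraries farthest from the median r was 0.95, 0.89 and 0.80 for these pairs, and within C57 males, over 12 libraries, it was 0.90, 0.85 and 0.79, or 0.87, 0.65 and 0.50 without the 2 farthest. Within C3H, all female, r over 15 libraries was 0.89, 0.84 and 0.61, or 0.77, 0.69 and 0.13 without the 2 farthest. For mmu-miR-96-5p with mmu-miR-182-5p the 2 farthest were chosen on mmu-miR-96-5p alone, and rho over all 15 C3H libraries was 0.52. How far that correlation rested on those 2 libraries is therefore not settled.

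In heart mmu-miR-183-5p and mmu-miR-182-5p were again linked, at r = 0.90 and rho = 0.91 (permutation p = 1e-05 for both, adjusted p = 3.75e-05). mmu-miR-96-5p followed them less, at r = 0.45 with mmu-miR-183-5p (rho 0.54, adjusted p = 0.0192 and 0.00628 by permutation) and r = 0.41 with mmu-miR-182-5p (rho 0.41, adjusted p = 0.0401 and 0.0381 by permutation). This last pair did not pass with sex added to the group means (adjusted p = 0.0826 for r by permutation), on log2(RPM + 1) (0.0807) or in sham libraries alone (0.128). Within the letters A and B the 3 correlations were 0.89 and 0.96, 0.34 and 0.69, and 0.38 and 0.59. In WBC, over 27 libraries, mmu-miR-183-5p was correlated with mmu-miR-182-5p (r = 0.66, rho = 0.46, adjusted p = 0.00237 and 0.0381 by permutation) and with mmu-miR-96-5p (r = 0.60, rho = 0.58, adjusted p = 0.00782 and 0.0101 by permutation). In the 16 sham WBC libraries alone neither Pearson correlation passed (adjusted p = 0.0697 and 0.0569 by permutation), and the rank correlation passed for the second pair only (0.268 and 0.0404). The WBC pair of mmu-miR-96-5p and mmu-miR-182-5p did not pass over all 27 libraries (r = 0.32, rho = 0.31, adjusted p = 0.222 and 0.213 by permutation). In RBC mmu-miR-183-5p and mmu-miR-182-5p had r = 0.55 and rho = 0.56 (adjusted p = 0.00237 and 0.00366 by permutation), which did not pass in sham libraries alone (r = 0.41, adjusted p = 0.0996 and 0.191 by permutation). The RBC pairs with mmu-miR-96-5p did not pass, at r = -0.25 and 0.03.

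Lung was the only tissue with a negative correlation that passed, that of mmu-miR-96-5p with mmu-miR-182-5p. Over 35 libraries this pair had r = -0.48 and rho = -0.53 (permutation p = 0.00643 and 0.00186, adjusted p = 0.0121 and 0.00465), and r = -0.61 without the 2 farthest libraries. The relation was not alike within letters, at r = -0.05 over 17 A libraries and r = -0.71 over 18 B libraries. mmu-miR-183-5p and mmu-miR-182-5p had r = 0.40 and rho = 0.48 (adjusted p = 0.0250 and 0.00951 by permutation), and mmu-miR-183-5p and mmu-miR-96-5p r = -0.01 and rho = -0.07 (adjusted p = 0.972 and 0.750 by permutation). In sham libraries alone the pair of mmu-miR-183-5p and mmu-miR-182-5p did not pass (r = 0.27, adjusted p = 0.309 and 0.150 by permutation). With sex added to the group means, an alternative chosen after the data were seen, neither lung Pearson correlation passed, at r = -0.41 and 0.35 (adjusted p = 0.0646 and 0.0826 by permutation), while both rank correlations did (adjusted p = 0.0201 and 0.0371 by permutation).

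The mean deviation of the members was compared in the same way between tissues of an animal. On the quantile-normalised scale, of 10 pairs of tissues none had an adjusted p under 0.05 by permutation, and 4 had an unadjusted one for r or rho. These were heart and brain (r = 0.41, rho = 0.43), WBC and RBC (r = 0.60, rho = 0.48), heart and RBC (r = -0.42, rho = -0.40) and lung and RBC (r = 0.36, rho = 0.41). The adjusted p of heart and brain over 35 animals was 0.0524 for r and 0.0611 for rho by permutation, and r was 0.15 with sex added to the group means. WBC and RBC, over 27 animals, had r = 0.33 without the 2 farthest animals. On the log2(RPM + 1) scale the same pair had r = 0.71 and rho = 0.63 (adjusted p = 0.0188 and 0.0193 by permutation), and r = 0.63 without the 2 farthest animals. By that scale r was 0.29 for heart and brain, -0.05 for heart and RBC and 0.24 for lung and RBC. In the 16 sham animals alone, on the quantile-normalised scale, WBC and RBC had r = 0.38 (adjusted p = 0.644 by permutation).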

How the data were processed

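The authors prepared small RNA libraries (QIAseq miRNA kit), trimmed the reads, matched them to mature miRNAs in BaseSpace and, per the labels, used the mm10 build; the deposited values are raw counts per mature miRNA, with no normalisation. All columns matched a sample. Pairs of libraries of a group differed by at least 17.8 times the sampling variance (chi-square per degree of freedom, 746 pairs), so none were merged. RPM divides by the library total, and with 1794995 to 7865102 counts 1 read is worth under 1 RPM. Counting intervals were not used.

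Quantile normalisation of log2 RPM, voom and limma followed the study's methods, while the filter and the adjustment were added here. Counts were filtered (edgeR 4.0.16 filterByExpr, count minimum 10, total minimum 15), quantile-normalised with voom and fitted with limma 3.58.1 (R 4.3.3) per tissue over strain by irradiation, or by sex too, with Benjamini-Hochberg adjustment over all miRNAs tested. Correlations used 100000 permutations within groups (scipy 1.17.1, numpy 2.4.6). Named miRNAs were the members, their 3p arms, miRNAs sharing a seed, marker miRNAs and, per tissue, the 5 most correlated with the members. The members and lists were chosen with earlier results of these data known. Alternatives were TMM, library size alone, edgeR, DESeq2 1.42.0, looser and stricter filters, no fold minimum, the letter, males alone, 1 strain, the animal as a block and leaving out each library. Replicates are separate animals.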

Additional observations from a re-analysis of the deposited data

Results flagged for a closer look

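In 45 sets of 4 to 10 libraries, each a member in a group of 1 tissue, 10 had a highest library set apart from the others by Dixon's test at 95%. For independent, normally distributed sets chance alone flags about 1 in 20. The sets here are not of that kind, since RPM was used without a log scale and 1 library can count for all 3 members. The irradiated C57 sets also mix males with the only female, so the 10 cannot be set against that rate. Of the 10 flagged, 5 were in brain. One sham C3H brain library, replicate 2, was high for all 3 members, with 23366 RPM of miR-183-5p against 4739 in the next library, 2049 RPM of miR-96-5p against 695, and 2077 RPM of miR-182-5p against 412. The irradiated C57 brain library of the only female, replicate 5, held 4563 RPM of miR-183-5p against 819, and 776 RPM of miR-182-5p against 154. In heart, sham C3H replicate 3 held 86.8 RPM of miR-96-5p against 23.8, and it was also the highest C3H heart library for the miR-200, leukocyte and erythrocyte lists. In blood, irradiated C57 replicate 1 held 25.4 RPM of miR-96-5p against 8.74 in WBC, and in RBC 22.8 RPM of miR-183-5p against 10.3 and 44.9 RPM of miR-182-5p against 13.4. A sham C3H WBC library, replicate 5, held 12.96 RPM of miR-182-5p against 4.004.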

How the results depend on the processing

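The lower level of all 3 members in the brain of sham C57 males was called under each of the 8 other settings and each of 15 fits without 1 library. Other counts of members called moved. In C3H heart, irradiated against sham, 1 member was called, but 0 with library size alone, the loose filter, the letter, 1 strain at a time or the animal as a block, 2 with edgeR or DESeq2 (each of which called 26 of 312 miRNAs), and 0 to 2 without 1 library. In heart between the sexes it was 1, but 0 with TMM, library size alone or the loose filter, and 0 to 1 without 1 library. With no fold minimum 2 were called in C3H lung and 1 in lung between the sexes, against 0. The mean log2 change in C3H lung was 0.47, and 0.73 with library size alone. In C57 brain 1 member, miR-96-5p, was called with DESeq2 and with the animal as a block, against 0. In RBC 1 was called by DESeq2 in C3H, and 1 by edgeR and by DESeq2 in C57, against 0. Of the 15 member pairs 11 passed, and 6 in sham libraries alone. Of the 10 tissue pairs 0 passed, and 1, WBC with RBC, on log2(RPM + 1). Without the most abundant miRNA in the total, median levels became 1142, 582 and 445 RPM in lung for miR-183-5p, miR-96-5p and miR-182-5p, 7.77, 10.2 and 8.25 RPM in RBC, and 12.5, 4.53 and 9.91 RPM in WBC, the divisor alone being smaller. The cause of the other changes was not tested. The strict filter left members untested in heart, WBC and RBC.

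Calls over all miRNAs moved more than 1.5 times under some settings. With no fold minimum they rose from 34 to 117 in C3H lung, 21 to 58 in C57 lung, 9 to 24 in lung between the sexes, 21 to 52 in C3H heart, 3 to 11 in C57 heart, 37 to 128 in heart between the sexes and 24 to 105 in brain between the sexes. Under the other settings these counts ran, in the same order, from 13 to 47, 6 to 27, 3 to 17, 10 to 31, 2 to 11, 10 to 54 and 12 to 27. Between the sexes they ran from 6 to 46 in WBC, against 26, and from 5 to 31 in RBC, against 17. The blood counts of 0 reached 1 and 5 in WBC and 14 and 1 in RBC, for C3H and C57. Without 1 library the counts between the sexes ran from 1 to 17 in lung, with the lowest for replicates 4, 7 and 15, from 13 to 34 in brain, with 13 without replicate 13 and 14 without replicate 15, from 6 to 35 in WBC, with 6 without replicate 10 and 8 without replicate 2, and from 10 to 23 in RBC, with 10 without replicate 13. Precision is limited in blood by the few reads of the members, as few as 1 in WBC and 2 in RBC, and by 1 female among irradiated C57 mice. Library-size scaling moved the median of all miRNAs against the quantile fit by 0.33 in C3H lung, 0.17 in C57 lung, -0.11 in C3H heart, -0.29 in C3H WBC and -0.24 in C3H RBC, and between the sexes by 0.31 in heart and 0.45 in WBC. Irradiated and sham libraries came from different animals, so that comparison could not be paired. Tissues of an animal were joined in the block and in the correlations between tissues.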
